A study of Mus musculus with 11 samples.

Results

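The numbered zinc finger protein genes are the mouse genes whose array symbol is Zfp followed by a number. Every such gene was taken except Zfp36, which encodes an RNA-binding protein of a different kind, and Zfp42, which is not analysed here. The 175 genes that resulted were read by 239 probes, each gene was represented by its brightest probe, and together they make up 175 of the 11208 features of the array.

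Expression was measured on 11 Illumina arrays of mouse epiblast stem cells (EpiSCs), pluripotent cells that resemble the postimplantation epiblast, of strain 129xMF1. All cells grew in N2B27 medium with Activin and Fgf. The line that carried the transgene GY118F, a chimeric receptor through which G-CSF (granulocyte colony-stimulating factor) activates STAT3, was measured unstimulated (n = 3) and after 3 hours of G-CSF (n = 2). Control EpiSCs, for which no transgene is listed, were measured unstimulated (n = 3) and after 3 hours of G-CSF (n = 3), and neither line's number of clones is given in the labels.

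Most Zfp proteins bind DNA through repeated C2H2 fingers, in which a pair of cysteines and a pair of histidines hold a zinc ion. Many carry a KRAB domain that recruits the corepressor Trim28 and the histone methyltransferase Setdb1, and in pluripotent cells such proteins silence retroelements and protect imprinted regions. mRNAs of this class are known as a group for short half-lives, which were not measured here.

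The region before a gene's start was read for 141 of the 175 genes, from RefSeq sequence of build GRCm38.p6, over 250 bases. The STAT binding motif TTCNNNGAA, a palindrome that reads the same on both strands, was present before 22 of the 141 genes (15.6%), against 8.13% of 27025 genes and 6.96% of the 7496 measured genes that have such a window. A second motif, ACTACA followed after any 2 letters by TCCCA, was searched on both strands after the matches of the first had been seen. It was present before 17 of the 141 genes (12.1%), against 1.55% of the 27025 genes and 3.66% of the measured genes, and before 0 of 28 Zbtb, Zscan and Zkscan genes, which are other zinc finger families. Of the 25 matches to the STAT motif, 4 overlapped the second motif. A match describes these letters and shows neither a bound site nor a cause.

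The following stretches show how alike the second motif's surroundings are in different members. Capitals mark the motif, written as on the gene's strand, where 12 of its 18 copies stand in the reverse orientation, starting TGGGA. Zfp58, Zfp72 and Zfp748 lie on one chromosome, and the 10 letters before their motif are the same.
Zfp1, chr8:111643406-111643438 (+): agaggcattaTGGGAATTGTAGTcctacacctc
Zfp58, chr13:67500532-67500564 (-): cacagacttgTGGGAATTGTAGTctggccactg
Zfp72, chr13:74390861-74390893 (-): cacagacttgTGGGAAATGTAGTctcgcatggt
Zfp748, chr13:67553157-67553189 (-): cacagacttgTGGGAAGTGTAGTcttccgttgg
Zfp180, chr7:24081863-24081895 (+): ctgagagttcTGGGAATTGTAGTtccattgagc
Zfp606, chr7:12478271-12478303 (+): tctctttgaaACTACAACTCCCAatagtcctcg

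Longer windows are shown for a member in which both motifs overlap (Zfp84), for one that fell in both lines and holds the STAT motif at 2 places (Zfp94), and for the single member that rose in GY118F EpiSCs and holds the STAT motif (Zfp330). Capitals mark the motifs.
Zfp84, chr7:29768302-29768551 (+): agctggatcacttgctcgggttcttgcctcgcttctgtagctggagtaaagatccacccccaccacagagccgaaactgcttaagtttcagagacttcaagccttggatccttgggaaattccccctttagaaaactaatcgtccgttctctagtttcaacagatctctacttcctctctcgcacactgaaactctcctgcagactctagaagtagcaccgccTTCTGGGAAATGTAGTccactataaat
Zfp94, chr7:24316667-24316916 (-): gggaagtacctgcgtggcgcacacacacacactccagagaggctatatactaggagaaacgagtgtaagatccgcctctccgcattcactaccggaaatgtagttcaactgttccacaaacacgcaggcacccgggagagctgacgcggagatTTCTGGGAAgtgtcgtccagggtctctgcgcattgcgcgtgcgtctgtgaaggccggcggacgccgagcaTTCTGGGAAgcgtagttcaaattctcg
Zfp330, chr8:82774146-82774395 (-): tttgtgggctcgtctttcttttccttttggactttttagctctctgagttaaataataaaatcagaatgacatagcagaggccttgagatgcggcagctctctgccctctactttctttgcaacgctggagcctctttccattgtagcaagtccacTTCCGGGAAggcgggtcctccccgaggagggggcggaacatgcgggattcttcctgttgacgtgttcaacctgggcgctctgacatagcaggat

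Values are on the deposited log2 scale, which ran from 7.11 to 15.22 over all probes and arrays, with a median of 8.16. The members were dim: their mean values ran from 7.37 to 10.61 with a median of 7.99, against a median of 8.33 over all features, and 45, 72, 43 and 15 members lay in bins 1 to 4 when all features were cut by brightness into 4 equal bins, bin 1 being the dimmest. Across features, which are not independent replicates, 2 arrays correlated at r = 0.994 to 0.998 within a group and at r = 0.960 to 0.982 between groups. All 7 measured EpiSC markers, among them Pou5f1 and Nanog, lay above the 25th percentile of all values in every group, with summed values of 70.5 to 72.3 in GY118F and 74.6 to 76.6 in control EpiSCs. Of the markers of other cell types, 2 of 7 fibroblast, 3 of 5 trophoblast, 2 of 5 endoderm, 2 of 5 neural and 0 of 4 haematopoietic genes were measured. A change was called where limma's Benjamini-Hochberg adjusted p, taken over all features, was under 0.05. The labels do not state whether replicate arrays came from separate cultures, and the p-values rest on a spread between arrays that may be technical.

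In GY118F EpiSCs the question was which members differed after 3 hours of G-CSF. In either line, G-CSF cannot be told apart from any other difference between stimulated and unstimulated arrays, on which the labels are silent. Zfp296, Zfp326 and Zfp207 led the rises, and Zfp30 and Zfp2 the falls. Members named for the size of a change, here and in later comparisons, were picked among called members whose groups do not overlap. Their lack of overlap is therefore no further support for a change. In all 28 members rose and 26 fell, which is 16% and 14.9% of the class, beside 17.8% of all features called higher and 21.9% called lower. The median log2 change of the members was 0.03, against -0.01 over all features, and single members ranged from -0.67 to 0.62. The class thus held rises and falls of similar number, and 5 members (2.86%) were both called and past 1.4-fold, against 8.39% of all features. Bulk RNA was measured, in which fewer cells of a type and less RNA per cell cannot be told apart.

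**Figure D1:**
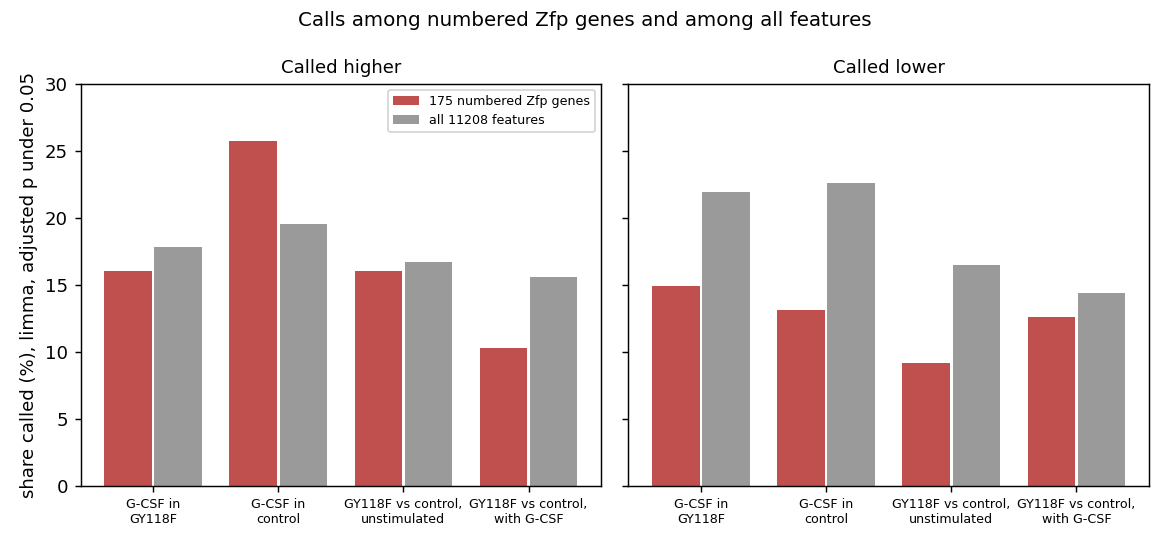
Share of features called higher (left) and lower (right) by limma with a Benjamini-Hochberg adjusted p under 0.05, in percent, for the 175 numbered Zfp genes (red) and all 11208 features (grey) in 4 comparisons. After G-CSF in control EpiSCs 25.7% of the members were called higher against 19.5% of all features. In each of the 4 comparisons the share called lower was smaller among the members, which are dim, than among all features. By brightness it was larger in bin 3 after G-CSF in GY118F (30.2% against 28.2%) and in bin 2 between stimulated lines (15.3% against 14.4%). In the other bins it was smaller or nearly equal.

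Zfp296, which supports reprogramming and pluripotency in mouse cells, read 7.54, 7.49 and 7.49 in unstimulated GY118F EpiSCs and 8.23 and 8.02 after G-CSF. Both stimulated arrays stood above all 3 unstimulated ones, a rise of 0.62 ± 0.06 (SE, 1.54-fold; limma Benjamini-Hochberg adjusted p = 7.25e-06). Its second probe rose by 0.54.

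Zfp326, a subunit of the DBIRD complex, which acts on transcript elongation and alternative splicing, read 8.83, 8.91 and 8.89 without and 9.42 and 9.43 with G-CSF. The groups did not overlap, and the rise was 0.55 ± 0.08 (SE), with its other 2 probes rising by 0.59 and 0.68. Zfp207, also called BuGZ, which loads the checkpoint protein Bub3 onto kinetochores, read 9.68, 9.66 and 9.76 without and 10.22 and 10.17 with G-CSF. It rose by 0.49 ± 0.06 (SE), again without overlap, whereas its dimmer second probe stood at -0.16 without a call, so the probes of this gene disagree, and with the mean of its probes the rise was 0.17.

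Zfp30, a KRAB zinc finger protein, moved most in the other direction. It read 8.70, 8.45 and 8.41 without and 7.87 and 7.83 with G-CSF. Every stimulated array lay below every unstimulated one, and it fell by 0.67 ± 0.08 (SE, limma Benjamini-Hochberg adjusted p = 2.15e-05). Zfp2 fell by 0.50 ± 0.07 (SE), from 8.94 ± 0.06 (SD, n = 3) to 8.45 ± 0.08 (SD, n = 2).

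The other named rises in GY118F EpiSCs were smaller, with Zfp202 at 0.35, Zfp664 and Zfp777 at 0.32 each, Zfp710 at 0.31 and Zfp655 at 0.30. The calls of Zfp664 and Zfp655 were lost without GY118F G-CSF replicate 2 (limma adjusted p = 0.0776 and 0.130). The second probe of Zfp710 stood at -0.07, but its mean of 7.44 lay below the 25th percentile of all values (7.62). A probe that dim may not show a change, and averaging it in can shrink the value. With the mean of the probes of Zfp710 the change was 0.12 and the call was lost (limma adjusted p = 0.0698). The mean of its probes gave Zfp664 0.21. Further falls were seen in Zfp369 (-0.45), Zfp763 (-0.45), Zfp941, Zfp512 and Zfp688 (-0.44 each) and Zfp810 (-0.41, and -0.18 with values below the 25th percentile of all values set to it). Among members with a known role, Zfp521, a regulator of neural and B-cell progenitors, fell by 0.31, Zfp423, a cofactor of BMP-activated SMADs, rose by 0.28, and Zfp91, a ubiquitin ligase, rose by 0.17, a call lost without GY118F G-CSF replicate 2 (limma adjusted p = 0.0860). Zfp281, which helps cells pass from naive to primed pluripotency, stood at 0.15 ± 0.07 (SE) without a call. In control EpiSCs Zfp281 rose by 0.19, Zfp423 by 0.15 and Zfp91 by 0.25 (limma adjusted p = 0.0204, 0.0287 and 0.000438). There the call of Zfp281 was lost without control G-CSF replicate 2 (limma adjusted p = 0.0866). That of Zfp423 was lost without unstimulated control replicate 1 (limma adjusted p = 0.109).

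The median change in GY118F EpiSCs moved with the 2 stimulated arrays. It was -0.0046 without GY118F G-CSF replicate 2 and 0.0379 without GY118F G-CSF replicate 3, in place of 0.03. Counts of calls moved as well when an array of either line was left out, but a smaller fit can call fewer features of any kind.

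The same question in control EpiSCs gave 45 members that rose and 23 that fell, which is 25.7% and 13.1% of the class, beside 19.5% and 22.6% of all features. The median log2 change was 0.06 for the members and 0.00 for all features, and 62.9% of the members stood above 0 against 50.3%. Since the members are dim, the share was also taken by brightness. In bin 2, which holds 72 members, 27.8% of the members and 18.1% of all features were called higher. In bin 3 the shares were 27.9% and 26.0%, and in bin 4, with 15 members, 40.0% and 25.8%. Past 1.4-fold in either direction were again 5 members (2.86%, against 7.44% of all features), among them the fall of Zfp30. The calls, upward and downward, were thus mostly of small size. The summed EpiSC markers ranged over 74.6 to 75.5 without and 76.1 to 76.6 with G-CSF here. In the GY118F line they ranged over 70.5 to 71.3 without and 71.7 to 72.3 with it, and their part in the members' changes was not tested. Of the 9 measured markers of other cell types, 4 were called after G-CSF in control EpiSCs. The trophoblast gene Cdx2 rose by 1.23, from 7.32, near the lower end of all values, to 8.55, the neural gene Nes rose by 0.40, the trophoblast gene Krt8 fell by 0.43 and the fibroblast gene Thy1 fell by 0.49. In GY118F EpiSCs Cdx2 rose by 0.46, Nes by 0.44 and the fibroblast gene Dcn by 0.42, while Thy1 fell by 0.29. The interaction called Cdx2 (-0.77) and Krt8 (0.50), and the part of these genes in the members' changes was not tested.

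Zfp365, which binds the scaffold protein DISC1, rose most in control EpiSCs. It read 8.87, 9.05 and 8.84 without and 9.43, 9.61 and 9.77 with G-CSF. The groups did not overlap, which was a condition of being named here. The rise was 0.68 ± 0.08 (SE, limma Benjamini-Hochberg adjusted p = 2.41e-05), with a second probe at 0.64.

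Zfp296 went from 7.82, 7.78 and 7.85 to 8.49, 8.41 and 8.43, a rise of 0.63 ± 0.05 (SE), and Zfp326 from 8.56, 8.71 and 8.58 to 8.99, 9.32 and 9.22, a rise of 0.56 ± 0.07 (SE). Neither gene's groups overlapped. Zfp266, a KRAB zinc finger protein, rose by 0.53 ± 0.05 (SE). Its second probe, which lay below the 25th percentile of all values, stood at 0.07 without a call. The mean of its probes gave 0.30. Zfp532 rose by 0.48, Zfp608 by 0.43 (0.19 with the mean of its probes) and Zfp770 and Zfp777 by 0.36 each.

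Zfp30 read 8.47, 8.39 and 8.39 without and 7.75, 7.79 and 7.70 with G-CSF in control EpiSCs. All 3 stimulated arrays were lower, and it fell by 0.67 ± 0.07 (SE), the same size as in the GY118F line. Zfp639 followed at -0.42, Zfp521 at -0.41, Zfp941 at -0.37, Zfp810 at -0.31, Zfp512 at -0.29 and Zfp318 and Zfp94 at -0.28 each. With values below the 25th percentile set to it, the call of Zfp810 was lost (limma adjusted p = 0.120).

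Other members were named for a known role. Zfp809, which silences integrated murine leukaemia virus, stood at 0.08 in GY118F and -0.03 in control EpiSCs after G-CSF. Zfp568, which silences a placental Igf2 promoter, and Zfp445, which protects imprints, rose in control EpiSCs by 0.18 and 0.23, the call of Zfp445 being lost without control G-CSF replicate 3 (limma adjusted p = 0.181) and that of Zfp568 (limma adjusted p = 0.561) once values below the 25th percentile were raised to it. Zfp598, which ubiquitinates stalled ribosomes, and Zfp622, a factor of large ribosomal subunit maturation, were between -0.03 and 0.00 in both lines. Of 28 genes listed for a known role, 20 were measured. Among those not named elsewhere, Zfp292 fell by 0.38 in GY118F EpiSCs, and Zfp131 rose by 0.22 in GY118F and 0.24 in control EpiSCs. Zfp106, Zfp148 and Zfp703 rose by 0.18 each in control EpiSCs, and Zfp64 and Zfp516 were not called after G-CSF. A floor at the 25th percentile took the calls of Zfp131 in GY118F (limma adjusted p = 0.0764) and of Zfp703. The mean of its probes took that of Zfp148 (limma adjusted p = 0.296).

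**Figure D2:**
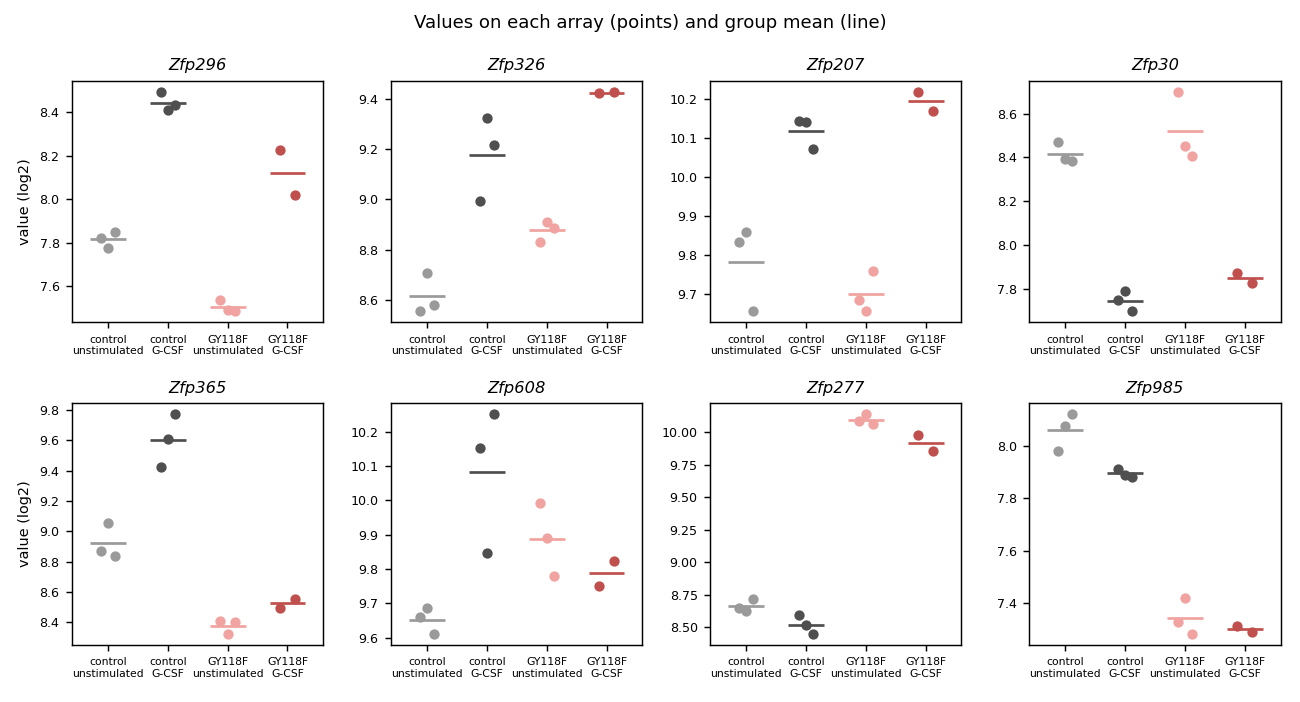
Value of 8 members on each array (points, log2) with the group mean (line), in control (grey) and GY118F (red) EpiSCs, unstimulated (light) and after 3 hours of G-CSF (dark); the vertical axes do not start at 0 and differ between panels. Zfp296, Zfp326 and Zfp207 were higher and Zfp30 lower on every stimulated array of both lines, Zfp365 and Zfp608 rose in control EpiSCs, and Zfp277 and Zfp985 separated the lines.

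The comparisons of G-CSF in the 2 lines share no arrays, though they share 1 estimate of the spread. In both lines 22 members rose, which is 78.6% of the 28 in GY118F and 48.9% of the 45 in control EpiSCs. Over all features the shared rises were 69.1% and 63.2% of the lists. Both lines had falls of 14 shared members, 53.8% and 60.9% of the lists, against 70.9% and 68.7% over all features. In opposite directions 0 members were called, and 0.767% of all features. The log2 changes in one line and in the other correlated at r = 0.78 across the 175 members (Spearman's rho = 0.76), against r = 0.75 over all features, and 80.6% had the same sign against 78.3% of all features. The correlation and the share of equal signs were thus close to those of all features, whereas the shared calls were a smaller share of the members' lists than of all features' lists, except for the rises in GY118F. Genes are not independent replicates, and none of these differences was tested. No transgene is listed for control EpiSCs, and the cause of the changes shared by both lines was not tested.

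**Figure D3:**
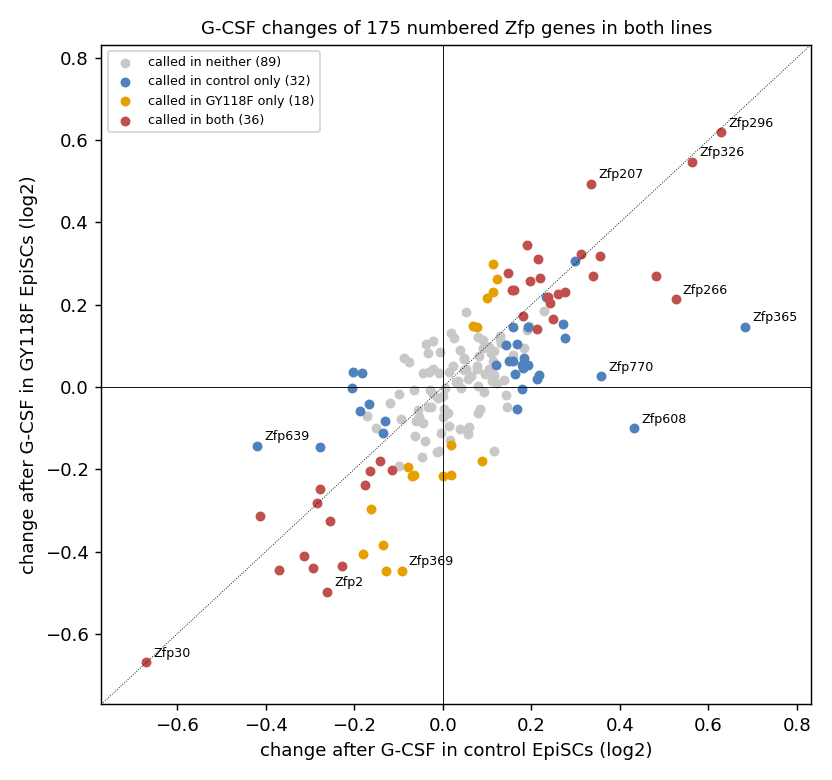
Log2 change after G-CSF of each of the 175 members in control EpiSCs (horizontal) and GY118F EpiSCs (vertical); the dotted line marks equal change, and colour gives the line in which a member was called. The 36 members called in both lines lie in the upper right (22) and lower left (14), with Zfp296 and Zfp30 at the ends, and Zfp365, Zfp608 and Zfp770 lie to the right of the dotted line.

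The difference between the lines' G-CSF changes was tested as an interaction. It called 0 members more upward and 4 members (2.29%) more downward in GY118F than in control EpiSCs, beside 3.85% and 2.14% of all features. These were Zfp365 at -0.54 ± 0.12 (SE, limma Benjamini-Hochberg adjusted p = 0.0192), Zfp608 at -0.53 ± 0.13 (0.0316), Zfp770 at -0.33 ± 0.08 (0.0358) and Zfp266 at -0.31 ± 0.08 (0.0406). The median of this difference over the members was -0.04, against -0.01 over all features, and 33.1% of the members stood above 0 against 47.8% of all features. For most members called in 1 line, then, a difference between the lines was not shown.

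Zfp365 read 8.41, 8.32 and 8.40 in unstimulated and 8.50 and 8.55 in stimulated GY118F EpiSCs, a change of 0.15 ± 0.09 (SE) without a call. Zfp608 read 9.66, 9.69 and 9.61 in unstimulated and 10.15, 9.85 and 10.25 in stimulated control EpiSCs, but 9.99, 9.89 and 9.78 and then 9.75 and 9.82 in the GY118F line. So it was higher in all 3 stimulated control arrays, while the GY118F groups overlapped. When each of the 11 arrays was left out in turn, the interaction call was kept in 8 of 11 fits for Zfp365, 4 for Zfp266, 2 for Zfp608 and 2 for Zfp770, and no array could be left out without moving the number of members called downward. It was 0 without unstimulated control replicate 3 or GY118F G-CSF replicate 2, 3 without control G-CSF replicate 2, 6 without unstimulated GY118F replicate 3, and 1 or 2 without any other single array. With values below the 25th percentile set to it, all 4 calls were lost (limma adjusted p = 0.0680, 0.0990, 0.0575 and 0.0575 in the order above). The 4 differences themselves were the same in that fit. The other 2 probes of Zfp608, both dim, changed by 0.20 and -0.07 in control EpiSCs, neither called, and with the mean of its probes the difference between the lines was -0.25 (limma adjusted p = 0.0629).

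Each array was also summarised by the median, over the members, of the value minus the gene's mean over all 11 arrays. This deviation was -0.03, -0.04 and -0.04 on the unstimulated control arrays and 0.03, 0.02 and 0.02 on the stimulated ones, so the stimulated control arrays all stood above the unstimulated ones. In GY118F EpiSCs it was 0.00, -0.01 and -0.01 without and 0.02 and -0.005 with G-CSF, and these groups overlapped. Over all features the array medians of the deviation lay between -0.01 and 0.00. Because the deposited arrays share 1 distribution of values, a change of total RNA could not be seen, and the deviation describes the members relative to the rest of the array.

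**Figure D4:**
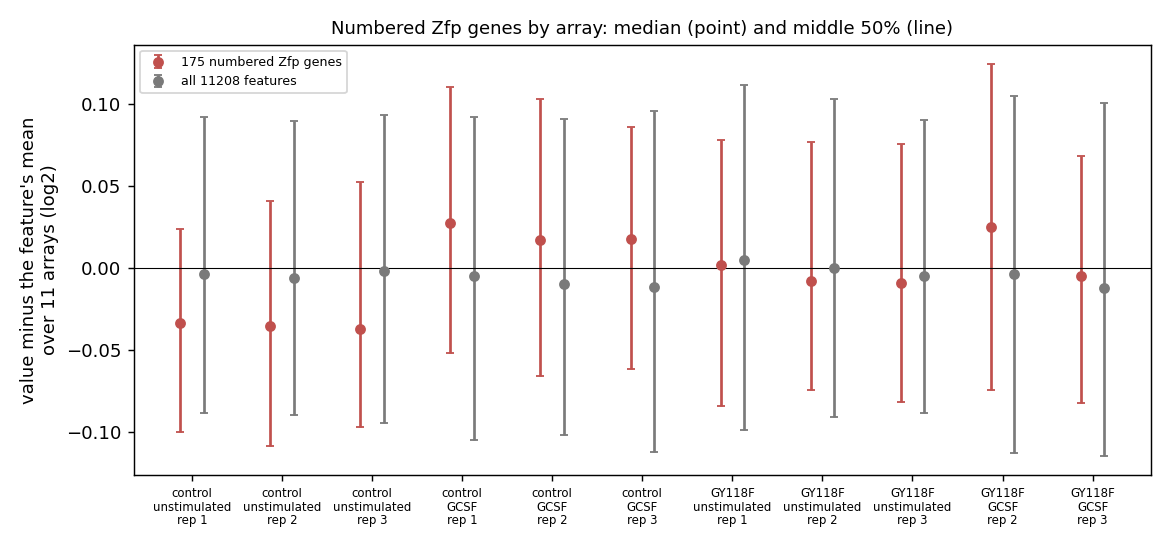
Median (point) and middle 50% (line) of the value minus the gene's mean over all 11 arrays, in log2 units, for the 175 members (red) and all features (grey) on each array. The members' medians were lowest on the 3 unstimulated control arrays and above 0 on the 3 stimulated control arrays, while the middle 50% of the members overlapped between all arrays.

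The next comparison set unstimulated GY118F against unstimulated control EpiSCs. Zfp277 differed most of all members. It read 10.09, 10.14 and 10.07 in GY118F and 8.64, 8.63 and 8.71 in control EpiSCs. The lines did not overlap, again a condition of being named. Zfp277, which binds Polycomb proteins and represses the Ink4a/Arf locus, was higher in GY118F by 1.44 ± 0.05 (SE, 2.71-fold, limma Benjamini-Hochberg adjusted p = 6.51e-10). Its second, dimmer probe, which lay just below the 25th percentile of all values, showed 0.01 without a call, and the mean of its probes gave 0.73.

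In all 28 members were higher and 16 lower in the GY118F line (16% and 9.14%), beside 16.7% and 16.5% of all features, with a median difference of 0.02. Zfp511 (0.68), Zfp579 (0.60), Zfp41 (0.50), Zfp12 (0.41), Zfp787 (0.38), Zfp710 (0.37) and Zfp219 (0.36) were also higher, and the second probe of Zfp511 showed -0.03 without a call. With the mean of its probes the difference was 0.33 for Zfp511, 0.24 for Zfp787 and 0.24 for Zfp710. Zfp985 read 7.32, 7.42 and 7.28 in GY118F and 7.98, 8.08 and 8.12 in control EpiSCs. Every GY118F array was lower, and the difference was -0.72 ± 0.05 (SE), or -0.44 with values below the 25th percentile set to it. Zfp365 (-0.54), Zfp758 (-0.43), Zfp979 and Zfp428 (-0.42 each), Zfp809 (-0.34), Zfp296 (-0.31) and Zfp791 (-0.29) were lower as well, the call of the dim Zfp791 being lost once values below the 25th percentile were raised to it, which also took Zfp296 to -0.20. The second probe of Zfp428, which lay below the 25th percentile of all values, showed 0.00 without a call. The mean of its probes gave -0.21. Of the 7 EpiSC markers, Pou5f1, Nanog, Fgf5 and Otx2 were lower in the unstimulated GY118F line (differences of -0.74, -0.90, -1.41 and -2.09), Sox2 was higher by 0.51, and Dnmt3b and Lin28a stood at 0.23 and 0.27 without a call. Of the markers of other cell types, Cdx2 (0.63), Zic1 (0.46) and Dcn (0.38) were higher, and Thy1 (-0.82), Krt8 (-0.46) and Gata6 (-0.44) lower. The part of all these genes in the differences was not tested.

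With G-CSF present in both lines, 18 members were higher and 22 lower in GY118F (10.3% and 12.6%), beside 15.6% and 14.4% of all features, and the median difference was -0.01. Without GY118F G-CSF replicate 2 the median difference was -0.0222, and without GY118F G-CSF replicate 3 it was 0.0129. Zfp277 was again highest, at 1.40 ± 0.06 (SE), followed by Zfp787 and Zfp511 at 0.58, Zfp219 at 0.48, Zfp579 and Zfp710 at 0.47, Zfp951 at 0.36 and Zfp523 at 0.33. With values below the 25th percentile set to it, the dim Zfp951 stood at 0.03. Zfp365 was lowest, at -1.08 ± 0.09 (SE), and Zfp985 (-0.60), Zfp428 (-0.50), Zfp473 (-0.48), Zfp770 (-0.45), Zfp979 (-0.44), Zfp369 (-0.43) and Zfp266 (-0.34) followed. With values below the 25th percentile set to it Zfp985 stood at -0.28. With the mean of a gene's probes the difference was 0.77 for Zfp277, 0.35 for Zfp787, 0.31 for Zfp511 and 0.26 for Zfp710. It was -0.22 for Zfp428, -0.31 for Zfp473, -0.20 for Zfp369 and -0.20 for Zfp266. The second probes of Zfp277, Zfp710, Zfp428, Zfp473, Zfp369 and Zfp266 lay below the 25th percentile of all values, so averaging them in can shrink the difference.

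The comparisons of the lines without and with G-CSF share no arrays. Of the members higher in GY118F, 14 were called in both, 50% of the 28 and 77.8% of the 18, and of those lower, 11 were called in both, 68.8% of the 16 and 50% of the 22. Over all features these shares were 60.2% and 64.7% for higher and 56.7% and 65.2% for lower. No member was called in opposite directions (0 of 175), against 19 and 54 of the 11208 features, and the differences correlated at r = 0.83 across members, against 0.74 over all features.

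**Figure D5:**
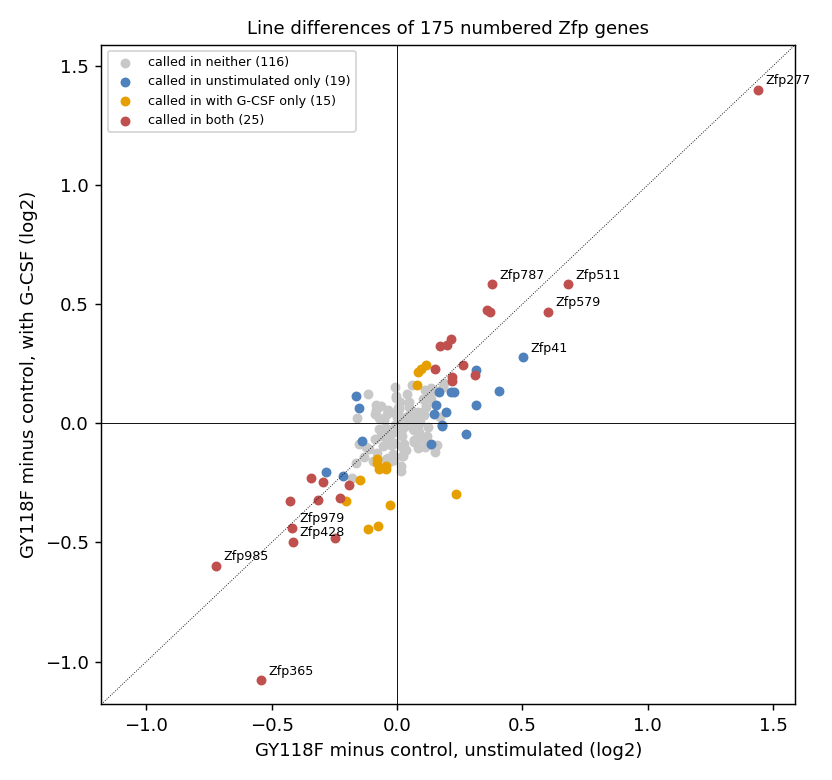
Difference between GY118F and control EpiSCs (log2) for each of the 175 members, unstimulated (horizontal) and with G-CSF (vertical); the dotted line marks equal differences, and colour gives the condition in which a member was called. Zfp277 lies far at the upper right (1.44 and 1.40), Zfp985 and Zfp365 lie at the lower left, and Zfp365 lies below the dotted line.

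Many members are neighbours on their chromosomes: 88 of the 175 lay in 29 runs of at least 2 with at most 5 other genes between them, by RefSeq gene order, and chromosome 7 held 40 members. Members of a run could differ in their calls. On chromosome 6, where Zfp398, Zfp282, Zfp212, Zfp956, Zfp777, Zfp746 and Zfp467 form 1 run, 4 rose in control EpiSCs and 1 in GY118F EpiSCs. In the chromosome 7 run of Zfp84, Zfp30, Zfp790, Zfp27, Zfp568 and Zfp82, Zfp30 and Zfp27 fell in both lines, Zfp568 rose in control EpiSCs, and Zfp84, Zfp790 and Zfp82 were not called in either. The pair Zfp985 and Zfp979 on chromosome 4 was lower in GY118F in both comparisons of the lines. Neighbours of this kind can be close copies, and a probe may read more than 1 of them, which could not be checked with the sequences used here.

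The promoter motifs could be set against the G-CSF calls. The second motif, shown above for Zfp1 and others, was present before 0 of 24 members that rose and 0 of 21 that fell in GY118F EpiSCs, and before 17 of 96 that were not called. In control EpiSCs it was present before 2 of 34 that rose, 1 of 20 that fell and 14 of 87 that were not called. The STAT motif was present before 1 of 24 members that rose in GY118F EpiSCs (Zfp330), 2 of 21 that fell, among them Zfp94, and 19 of 96 that were not called. In control EpiSCs it was present before 2 of 34 that rose, 4 of 20 that fell (20%) and 16 of 87 that were not called (18.4%). These counts are descriptions, with no test. The same split was not made over all features, and the brightness of the members with a motif was not compared. Dim features were called less often. After G-CSF in GY118F, 8.99% of all features in bin 1 were called higher and 10.3% lower, against 24% and 28.2% in bin 3.

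Zbtb, Zscan and Zkscan genes, 32 of which were measured, gave 3 rises and 6 falls in GY118F and 5 of each in control EpiSCs, with median changes of -0.04 and 0.01. The rises were 9.38% and 15.6% of the 32 genes and the falls 18.8% and 15.6%, beside the 17.8% and 19.5% of all features called higher and 21.9% and 22.6% called lower. The genes that KRAB zinc finger proteins work with were measured for 16 of 18. Trim28, the shared corepressor, rose by 0.35 in GY118F and 0.29 in control EpiSCs, and Setdb1, the methyltransferase it recruits, by 0.32 and 0.46. In all 4 of the 16 (25%) rose and 1 fell in GY118F, and 6 (37.5%) rose and 1 fell in control EpiSCs, beside 17.8% and 19.5% of all features called higher, and the 1 that fell is 6.25%, beside 21.9% and 22.6% called lower.

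Factors of mRNA decay were measured for 23 of 30 listed genes, since short-lived mRNAs depend on them. In GY118F EpiSCs 5 rose and 4 fell (21.7% and 17.4%), and in control EpiSCs 6 rose and 6 fell (26.1% each), beside 17.8% and 21.9% of all features in the first line and 19.5% and 22.6% in the second. The antiproliferative deadenylation cofactor Btg1 fell by 0.88 in GY118F and 0.79 in control EpiSCs. In the same order the decapping enzyme Dcp2 rose by 0.19 and 0.21 and the exosome nuclease Exosc10 by 0.21 and 0.27. Dcp1a rose by 0.19 and 0.28 and Lsm1 by 0.26 and 0.24. Dcp1b fell by 0.29 and 0.32, Tob1 by 0.27 and 0.18 and Pan2 by 0.18 and 0.21. All of these changes were called. Zfp36, the destabiliser of AU-rich mRNAs that the class leaves out, rose by 1.096 in GY118F EpiSCs and changed by -0.20 in control EpiSCs, and this difference of 1.29 was called by the interaction.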

How the data were processed

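The deposited log2 values of 15718 probes on 11 arrays come, per the submitters' processing notes, from lumi; its version, and whether a plain log2 or a variance-stabilizing scale was used, are not given in the sources used here. Their sorted values differed by at most 0.00116 between arrays, so they had been quantile-normalized. Probes were named through GEO's platform annotation (13711 with 1 symbol, 5 with several, 2002 unnamed), and each gene's brightest probe was kept, giving 11208 features without a filter on dim ones. All arrays were fitted together in limma 3.58.1 under R 4.3.3 without a replicate block, tested two-sided with Benjamini-Hochberg adjustment at 0.05, and the fit was tested on simulated data. Precision is limited by the number of arrays. Detection p-values were not used here.

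Groups came from the labels. Stimulated GY118F arrays carry numbers 2 and 3 from their source names, while their titles give 1 and 2; stimulated control arrays carry the numbers of their titles. Same-numbered arrays of different groups deviated together at r = -0.47 to 0.54 (median -0.01). Differently numbered arrays did so at r = -0.60 to 0.50 (median -0.01). For stimulated GY118F arrays the numbers of the titles were not tried, so whether any numbers pair the samples was not settled.

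The members, the role list, the corepressor, mRNA decay and marker lists, and the tests were chosen with earlier results of these data known. Named are, per comparison, the 8 largest rises and 8 largest falls among called members whose groups do not overlap, all called members of the interaction, and members with a listed role. The second promoter motif was chosen after seeing the data. RefSeq gene order and promoters (GRCm38.p6) were used for names, neighbours and sequences only; protein sequences were not used here, so KRAB and other members were not separated.

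Alternatives were every probe as a feature, the mean of a gene's probes, the brighter 50 percent of features and a floor at the 25th percentile. Further ones were a second quantile normalization, eBayes with trend and robust, array weights, only the groups compared and the replicate block. The last were Zfp36 counted as a member and leaving out each array in turn. The second normalization could change little, since the values were already quantile-normalized. With every probe as a feature, a named gene was still read by its brightest probe, so its change could not move.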

Additional observations from a re-analysis of the deposited data

Results flagged for a closer look

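The change after G-CSF differed between the lines by the interaction test for 4 members, all downward. That is 2.29% of the class, beside 2.14% of all features called downward, so the count was close to that of all features. None of these calls was kept whichever array was left out. GY118F minus control was -0.54 for Zfp365, -0.53 for Zfp608, -0.33 for Zfp770 and -0.31 for Zfp266. All 4 rose in control EpiSCs, by 0.68, 0.43, 0.36 and 0.53 in that order, and changed by 0.15, -0.10, 0.03 and 0.21 in GY118F EpiSCs, where the change of Zfp266 alone was called (limma adjusted p = 0.0140, and 0.148 without GY118F G-CSF replicate 3). With the mean of its probes that change was 0.05 and not called (limma adjusted p = 0.417). Its second probe, which lay below the 25th percentile of all values, stood at -0.11. All 4 differences kept their value but lost their call with values below the 25th percentile set to it (limma adjusted p = 0.0575 to 0.0990). Zfp608 also lost it with the mean of its probes (0.0629) and with array weights (0.0698), Zfp770 with array weights (0.0501), and Zfp266 with the replicate block (0.0576).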

How the results depend on the processing

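With the brighter 50 percent of features, which leaves 58 members, 12 rose and 15 fell in GY118F, 18 rose and 9 fell in control EpiSCs (31% and 15.5%, against 25.8% and 26.9% of the features kept), 17 were higher and 7 lower in unstimulated GY118F (29.3% and 12.1%, against 19.8% and 19.7%), and 11 and 9 with G-CSF (19% and 15.5%, against 19% and 18.1%); fewer features were tested. In GY118F the shares were 20.7% and 25.9%, against 22.7% and 26.4%. So the share higher in unstimulated GY118F, which was close to that of all features in the whole set, was above it among the brighter ones. The medians were then 0.0953 in control EpiSCs, -0.061 for the interaction, 0.0971 between unstimulated lines and 0.0326 between stimulated lines. With a floor at the 25th percentile of all values, the medians were 0.0098 in GY118F and 0.0305 in control EpiSCs. They were -0.0216 for the interaction and 0.0016 between unstimulated lines. The interaction then called 1 member upward and 2 downward, none of them among the 4 called without it. The differences of those 4 were the same with the floor (-0.54, -0.53, -0.33 and -0.31), and only their adjusted p moved. Why the calls changed was not tested. Counting Zfp36 as a member gave the interaction 1 upward call, since Zfp36 itself was called. Leaving out 1 array at a time gave, in GY118F, 21 to 27 rises, 17 to 27 falls and a median of -0.0046 to 0.0379. In control EpiSCs it gave 31 to 47 rises, 16 to 23 falls and 0.05 to 0.0668. The interaction gave 0 to 1 upward, 0 to 6 downward and -0.0458 to -0.0194. Unstimulated lines gave 22 to 30 higher, 11 to 17 lower and 0.0208 to 0.0299, and stimulated lines a median of -0.0222 to 0.0129. The shares over all features in these fits were not set beside the counts, and a smaller fit can call fewer features of any kind. With the replicate block, 24 rose and 25 fell in GY118F (13.7% and 14.3%, against 17.4% and 20.7% of all features). In control EpiSCs 46 rose and 21 fell (26.3% and 12%, against 20% and 22.8%). Whether the replicate numbers pair the samples was not settled. Of the named calls, 21 of 31 in GY118F, 25 of 36 in control EpiSCs, 0 of 4 of the interaction, 20 of 26 between unstimulated and 19 of 26 between stimulated lines were kept whichever array was left out. Under every other alternative that gave them a value, 24, 28, 0, 19 and 20 of them were kept, in the same order. Dim genes had no value among the brighter 50 percent of features. No named change past the threshold turned its direction under any alternative that gave it a value. Dim members near the lower end of the values have changes that may be understated, and 2 stimulated GY118F arrays limit every comparison that uses them.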

Other observations

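Of the 54 members read by more than 1 probe, with 64 further probes, the brightest probe's call and the others could be compared. After G-CSF in GY118F EpiSCs, 29 further probes belonged to genes whose brightest probe was called, and of these 24 had its sign, 11 were called the same way and 0 the opposite way. In control EpiSCs the counts were 28, 23, 14 and 0. Between the unstimulated lines they were 22, 19, 7 and 0.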
